A study of Mus musculus with 12 samples.

Results

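The 10 glutathione S-transferase genes described here were followed through the livers of mice fed chow or a high-fat diet and, in 1 group, treated with a ligand of the pregnane X receptor. They were picked by symbol, 10 of the 26031 genes with counts in the deposited tables: Gstm1, Gstm2, Gstm3, Gstm4 and Gstm6 of the mu class, Gsta2, Gsta3 and Gsta4 of the alpha class, Gstp1 of the pi class and Gstt1 of the theta class. All groups were C57BL/6N mice that started their diet at 6 weeks of age and stayed on it for 15 weeks. The chow group (replicates 8, 17 and 19) received regular chow and no treatment, and the HFD group (replicates 4, 30 and 38) a high-fat diet and no treatment. The other two high-fat-diet groups were treated once daily for 4 days, one with vehicle, 30% DMSO in corn oil (replicates 15, 23 and 55), and one intraperitoneally with PCN at 50 mg/kg (replicates 5, 11 and 27). PCN is pregnenolone 16α-carbonitrile, a steroid that activates the pregnane X receptor (PXR) of rodents. No chow group received PCN, so the diet and the drug were not crossed.

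Glutathione S-transferases join the tripeptide glutathione to electrophilic drugs, carcinogens and products of lipid oxidation, which makes them easier to export from the cell. The cytosolic enzymes work as dimers, and subunits of one class can pair with each other. Hepatocytes hold large amounts of them, and several mu and alpha class genes are known targets of the xenobiotic receptors PXR and CAR and of NRF2, the factor that answers oxidative and electrophilic stress through the antioxidant response element.

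Values are read counts divided by size factors that put the 12 libraries on 1 scale, called normalized counts here, with group means ± SD and n = 3. A fold is the ratio of 2 group means. A gene "rose" or "fell" where its adjusted p was under 0.05 in the authors' deposited DESeq2 table, and a second test with edgeR, which called fewer genes, is given beside the calls of transferases and as counts for the other lists. Counts of 26015 of the 26031 genes were given for the 6 HFD and vehicle libraries together, with totals of 7466378 (HFD replicate 38) to 38161486. The chow and PCN libraries had counts where 1 of the tables called the gene, and their totals were estimated from size factors as 11400000 (PCN replicate 11) to 35300000. By this route 9 of the 10 transferases had counts in all 12 libraries, and Gstt1 had them in the HFD and vehicle libraries. Vehicle replicate 55 had the lowest value of its group for 10 of 10 transferases and PCN replicate 11 for 8 of 9, so values without these libraries are given where they matter. The labels do not state that each replicate is a separate animal, so p-values rest on the spread among libraries, which may be technical. An exact two-sided permutation test of 3 against 3 libraries cannot give a p below 0.10, which was the value wherever groups did not overlap. In whole liver, fewer cells of a type and less RNA per cell cannot be told apart.

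The mu genes are close copies of each other. In GRCm38 they lie side by side on the minus strand of chromosome 3, Gstm6 at chr3:107938847-107943749, Gstm3 at chr3:107963696-107969283, Gstm2 at chr3:107981702-107986453, Gstm1 at chr3:108012255-108017973 and Gstm4 at chr3:108040408-108044894, each with 8 exons and 654 coding bases. Their coding sequences were 79.1% to 89.4% identical, highest for Gstm1 and Gstm3, and 213 of the 654 coding positions (32.6%) varied among the 5 genes. The stretch from coding base 316 to 405, in which 47 of 90 bases vary, shows how reads can tell the genes apart. It is printed from the GENCODE M21 transcripts with capitals at bases that differ from Gstm1:
Gstm1: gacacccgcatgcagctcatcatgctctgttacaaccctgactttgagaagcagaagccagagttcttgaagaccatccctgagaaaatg
Gstm2: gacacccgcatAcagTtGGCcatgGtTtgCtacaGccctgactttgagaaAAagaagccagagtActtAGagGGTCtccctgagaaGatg
Gstm3: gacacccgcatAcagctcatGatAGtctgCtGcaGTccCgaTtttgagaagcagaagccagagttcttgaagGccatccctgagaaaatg
Gstm4: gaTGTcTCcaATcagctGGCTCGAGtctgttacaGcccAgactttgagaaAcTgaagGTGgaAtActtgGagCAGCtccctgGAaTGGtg
Gstm6: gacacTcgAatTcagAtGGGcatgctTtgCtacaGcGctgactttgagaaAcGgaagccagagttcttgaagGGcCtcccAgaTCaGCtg
Here Gstm3 differed from Gstm1 at 11 of 90 bases, Gstm2 at 19, Gstm6 at 21 and Gstm4 at 34. Other stretches are the same. From coding base 389 to 500 Gstm1 and Gstm3 share a run of 112 bases, printed because a read inside it fits both genes:
Gstm1 and Gstm3: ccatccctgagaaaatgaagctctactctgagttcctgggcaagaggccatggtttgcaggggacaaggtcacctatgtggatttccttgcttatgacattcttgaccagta
Of all 50-base windows along the main transcript, 28.8% of Gstm3, 23.1% of Gstm1, 11.8% of Gstm6, 9.36% of Gstm2 and 0 of Gstm4 also occurred in a transcript of another gene. Counts of genes that share windows depend on how the authors treated reads with several matches, for which the sources used here give no setting.

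The alpha, pi and theta genes lie elsewhere. Gsta4 (chr9:78182774-78209349, plus strand) and Gsta2 (chr9:78331018-78355788, minus strand) are on chromosome 9, Gsta3 (chr1:21240589-21265661, plus strand) on chromosome 1, Gstp1 on chromosome 19 (minus strand, start 4035407, end 4037985 in GENCODE and 4037921 in the deposited tables), and Gstt1 (chr10:75783813-75798584, minus strand) on chromosome 10. The 3 alpha genes were 65.9% to 75.3% identical in coding sequence, and genes of different classes 46.3% to 52.6%. Shared windows reached 64.2% of Gsta2, among others with Gsta1 and the gene model Gm10639, and 62.3% of Gstp1, with Gstp2 and the pseudogene Gstp-ps. Gsta3, Gsta4 and Gstt1 had none.

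PCN-treated livers were compared with those of the vehicle group, the labelled control of the drug. The labels give neither the solvent of the PCN group nor the route of the vehicle. Of the 10 transferases 7 rose and 0 fell, where 1.07% of the 25880 genes tested rose and 0.641% fell: Gstm1, Gstm2, Gstm3, Gstm4, Gstm6, Gsta3 and Gstp1. The 9 with counts, which have them because at least 1 table called them, were higher in each PCN library than in any vehicle library, as were 27.8% of the 2440 genes with counts in both groups. Their median log2 ratio was 1.97. The edgeR test passed 2, Gstm1 and Gstm3. Of the 2440 genes it was fitted to, 13 passed as higher, which is 0.0502% of the 25880 tested. By edgeR 9 of 9 transferases had an unadjusted p under 0.05, as had 47.3% of the genes fitted. Leaving out PCN replicate 11, edgeR passed 4 (Gstm1, Gstm2, Gstm3 and Gstm4), and leaving out any other single library it passed 0. Of all genes fitted it passed 15 in either direction, 25 without PCN replicate 11, and 0 to 5 without any other single library.

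Gstm3, a mu class subunit, showed the widest gap. Its normalized counts were 51519.9, 14829 and 61863 in replicates 5, 11 and 27 of the PCN group, and 111, 229.5 and 66.4 in replicates 15, 23 and 55 of the vehicle group. Even the lowest PCN library was thus far above the highest vehicle library. The mean went from 136 ± 84.3 to 42737 ± 24716, a ratio of 315 (adjusted p = 8.93e-12 in the authors' deposited DESeq2 table, 0.025 by edgeR). Without vehicle replicate 23, the highest of its group, the ratio was 482, and without PCN replicate 11 it was 418. The authors' deposited table gives a log2 change of 2.71 with a standard error of 0.35, against a log2 ratio of the group means of 8.30, so the deposited value lies much closer to 0 than the ratio.

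Gstm1, the most abundant mu class gene in the untreated groups, had normalized counts of 56529, 37237 and 61150.0 in replicates 5, 11 and 27 after PCN and of 6459, 7849.7 and 4509 in replicates 15, 23 and 55 after vehicle. Its mean rose 8.23-fold, from 6273 ± 1678 to 51638 ± 12685 (adjusted p = 1.9e-27 in the authors' deposited DESeq2 table, 0.0268 by edgeR). Gstm2, a close relative encoded next to Gstm3, read 9525, 1999 and 10269 in PCN replicates 5, 11 and 27, and 521, 470.1 and 386 in vehicle replicates 15, 23 and 55. That is a 15.8-fold rise (adjusted p = 2.1e-05 in the authors' deposited DESeq2 table), which missed the threshold in edgeR (adjusted p = 0.0993). The PCN libraries of Gstm2 were uneven, with replicate 11 lower than the highest by a factor of 5.14, against 4.17 for Gstm3 and 1.64 for Gstm1. In each of the 3 genes the low PCN library was replicate 11.

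Gstm4 and Gstm6 moved less. For Gstm4 the PCN libraries had 1306, 730.0 and 1570.0 normalized counts and the vehicle libraries 390.2, 422 and 369.5, a 3.05-fold rise (authors' deposited DESeq2 adjusted p = 3.9e-06). Gstm6 had 1531, 1713 and 1431 against 606, 569 and 375, a 3.02-fold rise (authors' deposited DESeq2 adjusted p = 8.78e-10). The edgeR adjusted p was 0.135 for Gstm4 and 0.0517 for Gstm6. Gstm6 was the exception to the low reading of PCN replicate 11, which had its highest value. The mean of Gstm6 after PCN, 1558 ± 143, also had the smallest relative spread of the 9 genes in that group.

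Among the alpha genes Gsta3, the one with the most counts, rose 1.8-fold. It had 41147, 31721 and 39200.1 in replicates 5, 11 and 27 after PCN and 21111, 23930.2 and 17175 in replicates 15, 23 and 55 after vehicle (adjusted p = 0.00223 in the authors' deposited DESeq2 table, 0.229 by edgeR). Gsta4, whose enzyme acts on 4-hydroxynonenal, an aldehyde from oxidized lipids, had 1841, 1051 and 1209 against 369, 590.4 and 90.3. Gsta2 had 1519, 467 and 945 against 103, 238 and 16.6. Neither Gsta2 nor Gsta4 was called in the authors' table, although their ratios, 8.2 and 3.91, were above that of Gsta3. Both varied widely in the vehicle group, where replicate 55 had 16 raw reads of Gsta2 and 87 of Gsta4 and the highest library exceeded the lowest by factors of 14.3 and 6.54. Without replicate 55 the ratios were 5.74 for Gsta2 and 2.85 for Gsta4, and without replicate 23 they were 16.3 and 5.95.

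Gstp1, the pi class gene, had 7477, 5344 and 6796 in replicates 5, 11 and 27 after PCN and 3814, 4034 and 2402 in replicates 15, 23 and 55 after vehicle, a 1.91-fold rise (adjusted p = 0.0107 in the authors' deposited DESeq2 table, 0.232 by edgeR). Gstt1, the theta class gene, was not called, and its PCN counts were not analysed here. Markers of liver cell types were read beside these genes: 0 of 8 cholangiocyte, 0 of 10 macrophage, 0 of 8 stellate and 0 of 8 endothelial markers were called between PCN and vehicle, and 0 of 8 hepatocyte markers. Of all genes tested 1.07% rose and 0.641% fell, so lists of 8 or 10 genes would mostly hold 0 calls. Counts in all 12 libraries existed for 3 of these cholangiocyte, 1 macrophage, 3 stellate, 1 endothelial and 6 hepatocyte markers. The summed normalized count of the 6 hepatocyte markers counted in all 12 libraries was 551216 to 1062821 with PCN and 883371 to 1507804 with vehicle. Most of this sum was Alb, with means of 710301.7 with PCN and 1107410.5 with vehicle. Of the 6 markers Serpina1a alone had a higher mean with PCN (1.05-fold). The part of this sum in the results was not tested.

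**Figure D1:**
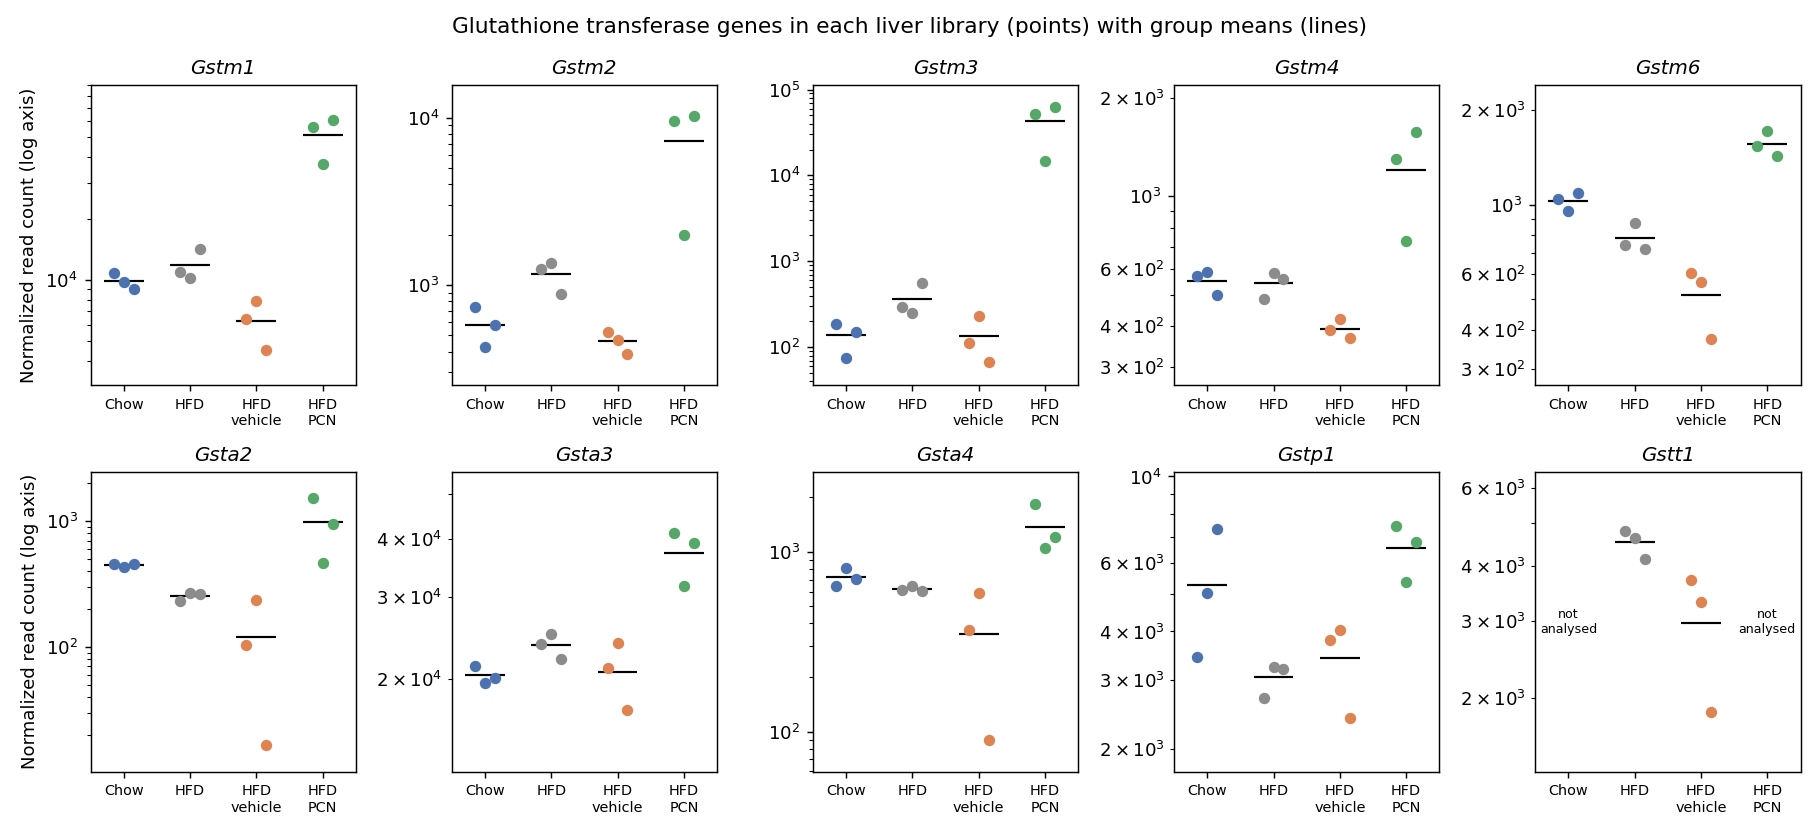
Normalized read counts (log axis) of the 10 transferase genes in the 12 liver libraries, by group, with points for libraries and lines for group means. In 9 genes the 3 PCN libraries lie above the 3 vehicle libraries, and Gsta2 and Gsta4 have 1 low vehicle library, replicate 55. Gstt1 was analysed in the HFD and vehicle groups.

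Levels of different genes were compared per kb of exon. In chow liver the order was Gstm1 (6691 ± 629 normalized counts per kb), Gsta3 (4691 ± 210.2), Gstp1 (3400.0 ± 1259), and then Gsta4 (569 ± 64.2), Gstm6, Gsta2, Gstm2, Gstm4 and Gstm3 (105 ± 43.9) at the bottom of the 9. Gstm2 lay within its SD of both Gsta2 and Gstm4, and Gsta4 within its SD of Gstm6. In the vehicle group Gsta3 (4774 ± 781) and Gstm1 (4258 ± 1139) were within their SD of each other, and Gstm3 (103 ± 64.3) and Gsta2 (101 ± 94.6) were the 2 lowest of 10. After PCN Gstm3 (32599 ± 18853) stood second of 9, next to Gstm1 (35057 ± 8611) and within its SD, ahead of Gsta3 (8599 ± 1146), Gstm2 (4327 ± 2725) and Gstp1 (4224 ± 704). Gsta3 has a long annotated exon total, and over its main transcript instead it ranked above Gstm1 in the chow, HFD and vehicle groups. In the PCN group Gstm1 and Gstm3 ranked first and second with either length.

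Summed over the 9 genes, the level per kb was 17022 ± 593 in chow, 17803 ± 1178 in HFD, 12484 ± 2918 in vehicle and 88204 ± 32538 in PCN liver (n = 3 each). The lowest PCN library reached 51052 and the highest library of the other groups 19147. Mu class genes made up 47% ± 5.2 of the sum in chow, 54.2% ± 4.4 in HFD, 40.9% ± 0.859 in vehicle and 82.1% ± 5.05 in PCN liver. Gstm3 alone went from 0.784% ± 0.33 with vehicle to 34.3% ± 10.7 with PCN. Gstm1 held a share of 33.9% to 44.8% in the 4 groups. The share of Gsta3 was 38.7% ± 3.17 with vehicle and 10.6% ± 3.3 with PCN, while its own level was higher with PCN. These shares depend on the length used: over main transcripts the mu share was 30.6% in chow, 35.5% in HFD, 24.2% in vehicle and 67.7% in PCN liver. Over the same lengths Gstm3 went from 0.393% with vehicle to 25.7% with PCN, Gsta3 from 57.4% to 23%, and Gstm1 held 19.3% to 34.8% in the 4 groups.

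**Figure D2:**
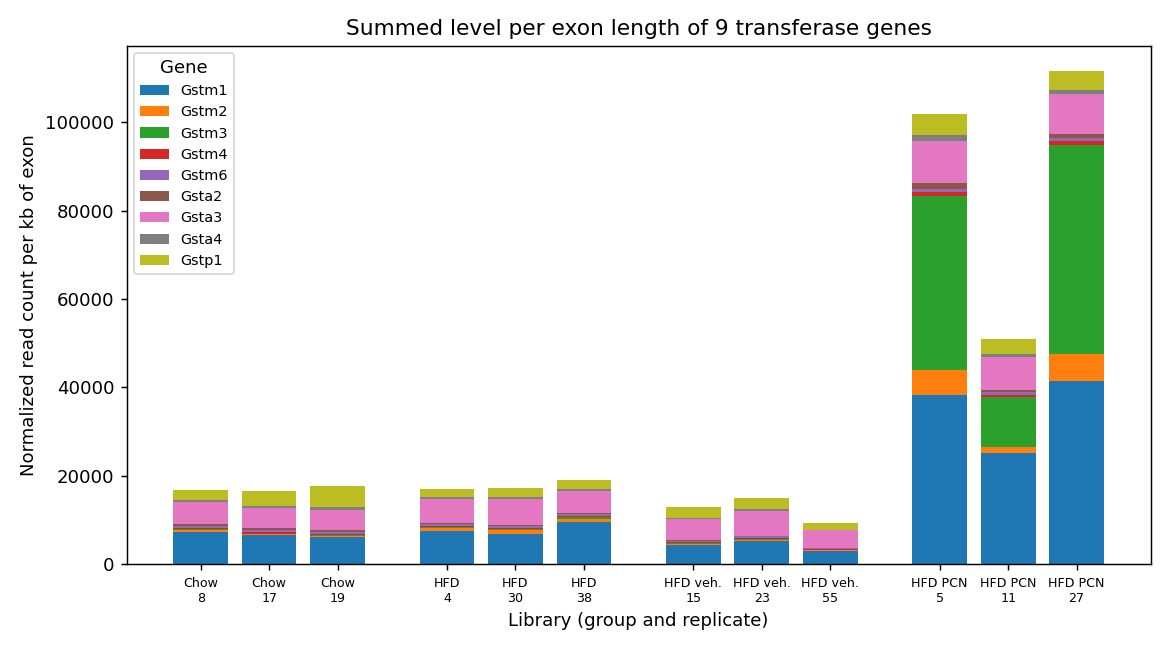
Summed normalized read count per kb of exon (bars from 0) of the 9 transferase genes counted in all 12 libraries, stacked by gene, 1 bar per library. The PCN bars hold a Gstm3 segment of 22.2% to 42.3% of the sum, and PCN replicate 11 is the lowest of them.

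Against the untreated high-fat-diet group 9 transferases rose with PCN and 0 fell, where 1.9% of 25658 genes rose and 1.25% fell, and each of the 9 was higher in every PCN library than in any HFD library, as were 29.5% of the 2449 genes with counts in both groups. This comparison shares the PCN libraries with the one above and sets treated against untreated mice. The edgeR test passed 4 of them, Gstm1, Gstm3, Gstm6 and Gstp1. Of the 2449 genes it was fitted to, 86 passed as higher, which is 0.335% of the 25658 tested. It passed 8 transferases without PCN replicate 11, 1 without PCN replicate 5 or HFD replicate 38, and 0 without any other single library. Of all genes fitted it passed 137 in either direction, 193 without PCN replicate 11, and 0 to 56 without any other single library. Gstm3 was 116-fold, Gstm2 6.28-fold and Gstm1 4.38-fold higher. Gsta2 and Gsta4, not called against vehicle, rose here 3.81-fold and 2.21-fold (authors' deposited DESeq2 adjusted p = 3.32e-06 and 4.42e-05), against HFD libraries that lay close together at 234, 270.1 and 265 and 609, 644 and 602. Their edgeR adjusted p was 0.0773 and 0.0664. The other 4 rose 1.58-fold (Gsta3) to 2.21-fold (Gstm4). In the same comparison 1 of 8 hepatocyte markers rose and 1 fell, and 1 each of 8 cholangiocyte, 8 stellate and 8 endothelial markers fell, their part not tested.

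Against chow 8 transferases were higher in PCN-treated livers and 0 lower, where 4.43% of 25101 genes were higher and 3.67% lower, and the groups did not overlap for these 8, where 49.2% of the 2241 genes with counts in both groups were higher without overlap. This contrast joins diet and treatment. The edgeR test passed 5, Gstm1, Gstm2, Gstm3, Gstm6 and Gsta3. Of the 2241 genes it was fitted to, 491 passed as higher, which is 1.96% of the 25101 tested. It passed 7 transferases without PCN replicate 11 and 2 (Gstm1 and Gstm3) without any other single library. Of all genes fitted it passed 778 in either direction, 721 without PCN replicate 11, and 141 to 202 without any other single library. Gstm3 was 312-fold, Gstm2 12.6-fold and Gstm1 5.24-fold higher. Gstm6, at 1.52-fold, had the smallest called ratio. Beside these genes 5 of 8 hepatocyte markers were lower and 3 of 8 stellate markers higher in the same comparison. Of 8 cholangiocyte markers 1 was higher and 1 lower, and 1 of 10 macrophage markers was higher. The part of these markers was not tested. Gstp1 was not called: its PCN mean of 6539 ± 1089.7 overlapped the chow libraries, which spread from 3443 in replicate 8 to 7319 in replicate 19.

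Vehicle against untreated high-fat diet shows what accompanied the vehicle treatment, and its table holds 26015 of the 26031 genes, called or not. By edgeR, the test set for this table, 0 of 10 transferases passed, where 1 of 13775 genes passed (0.00726%), and 6 had an unadjusted p under 0.05, as had 12.5% of genes. The authors' deposited table called 2 lower, Gstm1 and Gstm2, where it called 0.511% of 26015 genes lower and 0.281% higher. A DESeq2 fit of the same counts, and edgeR without a filter on low counts, each passed Gstm1, Gstm2 and Gstm3. The ratio was below 1 for 9 of the 10 genes, with a median log2 ratio of -0.71 against 0.02 over the 13775 genes. Without vehicle replicate 55 the edgeR log2 change was higher for all 10 genes. It moved from -0.62 to -0.38 for Gstt1, from -0.60 to -0.42 for Gstm6, and from 0.16 to 0.35 for Gstp1, the gene above 0. Groups did not overlap for 7 of 10, each lower with vehicle, where 9.99% of genes were lower and 9.6% higher without overlap.

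Gstm2 had 1239, 1345 and 887 in replicates 4, 30 and 38 of the HFD group and 521, 470.1 and 386 in replicates 15, 23 and 55 of the vehicle group. Every vehicle library was below every HFD library, and the mean was 2.52-fold lower (adjusted p = 2.28e-06 in the authors' deposited DESeq2 table, 0.117 by edgeR). Gstm1 had 10947, 10213 and 14217 in HFD replicates 4, 30 and 38, and 6459, 7849.7 and 4509 in vehicle replicates 15, 23 and 55. It was 1.88-fold lower, again without overlap (adjusted p = 0.0232 in the authors' deposited DESeq2 table, 0.237 by edgeR). For Gstm3 the HFD libraries had 297, 249 and 554 and the vehicle libraries 111, 229.5 and 66.4, a 2.71-fold lower mean that did not pass (adjusted p = 0.0965 in the authors' deposited DESeq2 table, 0.31 by edgeR). Its log2 ratio of -1.44 was -2.05 without vehicle replicate 23 and -1.01 without HFD replicate 38.

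Gstt1, which acts on small halogenated compounds, had 4789.9, 4612 and 4139.8 in replicates 4, 30 and 38 of the HFD group and 3705, 3310.1 and 1858 in replicates 15, 23 and 55 of the vehicle group. The groups did not overlap, and the 1.53-fold lower mean did not pass (adjusted p = 0.496 in the authors' deposited DESeq2 table, 0.365 by edgeR). Gstm4 and Gstm6 were 1.38-fold and 1.51-fold lower, also without overlap and not called. Gsta2 and Gsta4 had log2 ratios of -1.11 and -0.82, which were -0.59 and -0.37 without vehicle replicate 55, and -2.10 and -1.43 without vehicle replicate 23. Gsta3 (20739 ± 3393 against 23632 ± 1509) and Gstp1 (3416 ± 886 against 3051 ± 304) overlapped between the groups. Sums of markers of other cell types were lower in range with vehicle for stellate and endothelial markers, and overlapped for macrophage and cholangiocyte markers. The 8 cholangiocyte markers summed to 530.3 to 1170.2 in HFD and 425.9 to 929.9 in vehicle libraries. The summed normalized count of 8 stellate markers was 9453 to 12087 in HFD and 5395 to 9019 in vehicle libraries, that of 8 endothelial markers 7482 to 8189 and 4542 to 6946, and that of 10 macrophage markers 6574 to 10663 and 4682 to 6866, with 2 endothelial markers (Lyve1 and Cdh5) and 1 cholangiocyte marker (Krt23, 4.41-fold) called lower by the authors and none of them passed by edgeR (adjusted p = 0.162 to 0.263). Their part in the result was not tested.

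High-fat diet against chow is the diet comparison, without treatment. Of the 10 transferases 2 rose and 2 fell, where 2.81% of 25256 genes rose and 2.05% fell. Gstm2 and Gstm3 were the genes that rose. Gstm2 went from 736, 426 and 573 in replicates 8, 17 and 19 of the chow group to 1239, 1345 and 887 in the HFD libraries, 2-fold (adjusted p = 0.000991 in the authors' deposited DESeq2 table, 0.127 by edgeR). Gstm3 went from 187, 74.2 and 149.9 to 297, 249 and 554, 2.68-fold (adjusted p = 0.00524 in the authors' deposited DESeq2 table, 0.208 by edgeR). In both genes the lowest HFD library was above the highest chow library.

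Gsta2 and Gstp1 fell with the diet. Gsta2 had 460.0, 431 and 459 in replicates 8, 17 and 19 of the chow group and 234, 270.1 and 265 in HFD replicates 4, 30 and 38. Spread was small within both groups, and the mean fell 1.76-fold (adjusted p = 3.49e-06 in the authors' deposited DESeq2 table, 0.0415 by edgeR). Gsta2 was the 1 transferase that edgeR passed here, and it did not pass when any single library was left out. Of the 2870 genes fitted, 26 passed as lower, which is 0.103% of the 25256 tested. With any single library left out, 0 to 9 of the genes fitted passed as lower. Gstp1 had 3443, 5028 and 7319 in chow against 2701, 3242 and 3209.5 in HFD libraries, 1.73-fold lower (adjusted p = 0.0356 in the authors' deposited DESeq2 table, 0.316 by edgeR). The chow libraries of Gstp1 were the uneven ones, replicate 8 lying just above the highest HFD library. Gstm1, Gstm4, Gstm6, Gsta3 and Gsta4 were not called, with ratios from 0.76 (Gstm6) to 1.2 (Gstm1). Among the markers, 5 of 10 macrophage, 3 of 8 stellate and 2 of 8 cholangiocyte markers rose between the same groups. Of the hepatocyte markers 3 of 8 fell, and of 8 endothelial markers 1 rose and 1 fell. Col1a1, a stellate marker, was 8.74-fold higher, and the part of the markers in these changes was not tested.

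In vehicle-treated high-fat-diet liver against chow 0 transferases rose and 1 fell, where 1.72% of 25520 genes rose and 1.38% fell. The one that fell was Gstm6, with 1040.1, 953 and 1092 in replicates 8, 17 and 19 of the chow group and 606, 569 and 375 in vehicle replicates 15, 23 and 55, 1.99-fold lower (adjusted p = 0.000197 in the authors' deposited DESeq2 table, 0.0818 by edgeR). By edgeR 0 of 9 passed, and 4 had an unadjusted p under 0.05, as had 52.6% of the genes fitted. Of the 2863 genes fitted, 94 passed in either direction, which is 0.368% of the 25520 tested. Gsta2 had the largest ratio, 3.78-fold lower and not called, with 103, 238 and 16.6 in the vehicle libraries. Its log2 ratio of -1.92 was -2.91 without vehicle replicate 23 and -1.40 without replicate 55. For Gstm3 (136 ± 84.3 against 137 ± 57.6) and Gsta3 (20739 ± 3393 against 20376 ± 913) the libraries of the 2 groups overlapped.

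**Figure D3:**
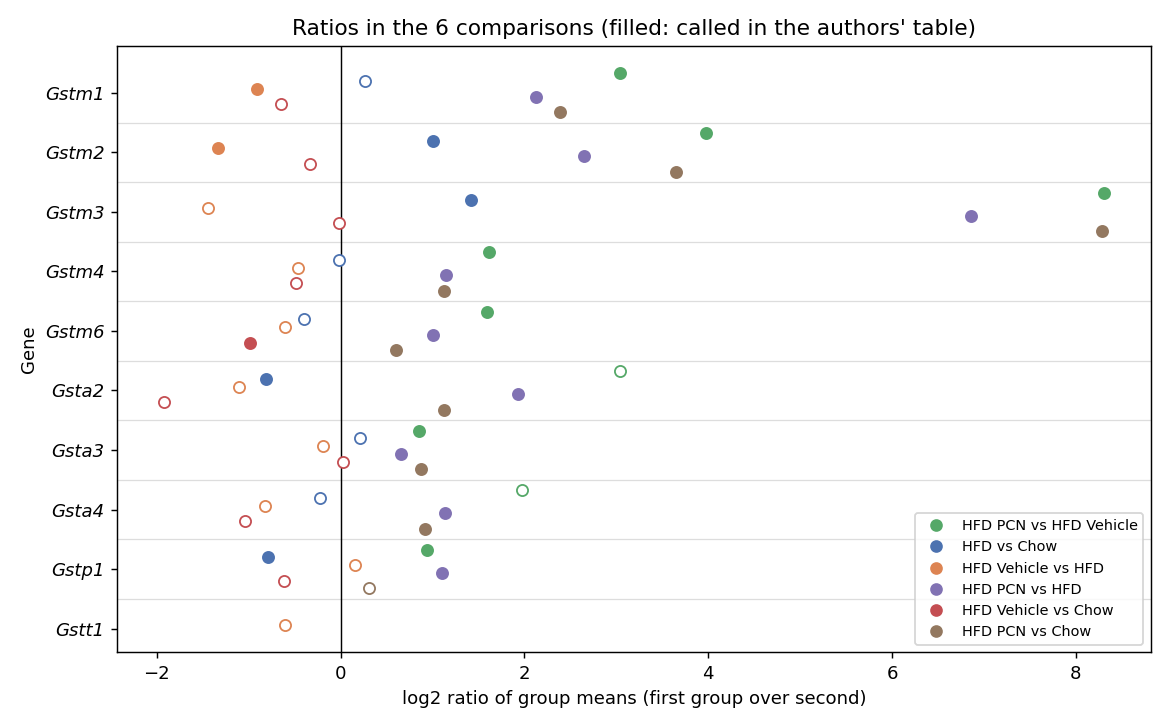
Log2 ratio of group means of each transferase gene in the 6 comparisons, with filled points for genes called in the authors' table and open points for the others. Points of the 3 PCN comparisons are right of 0 for 9 genes, up to 8.30 for Gstm3, and those of vehicle against HFD are left of 0 except for Gstp1. Comparisons share groups, so their points are not independent.

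The ratios differed along the mu gene cluster, which spans 149.1 kb with Gstm5 and Gstm7. In chromosome order the log2 ratio of PCN over vehicle was 1.03 for Gstm5, 1.59 for Gstm6, 8.30 for Gstm3, 3.98 for Gstm2, 3.04 for Gstm1 and 1.61 for Gstm4, while PCN counts of Gstm7 were not analysed here. The highest value thus lay inside the cluster, and both ends were lower. Gstm3 and Gstm6 are neighbours with 19.9 kb between them and share a coding run of 125 bases, yet their ratios were the highest and the second lowest of the 6. For vehicle over HFD the lowest log2 ratios were those of Gstm3 (-1.44) and Gstm2 (-1.33), and for HFD over chow Gstm3 (1.42) and then Gstm2 had the highest. These comparisons share the HFD and vehicle libraries, so their orders are not independent of each other.

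**Figure D4:**
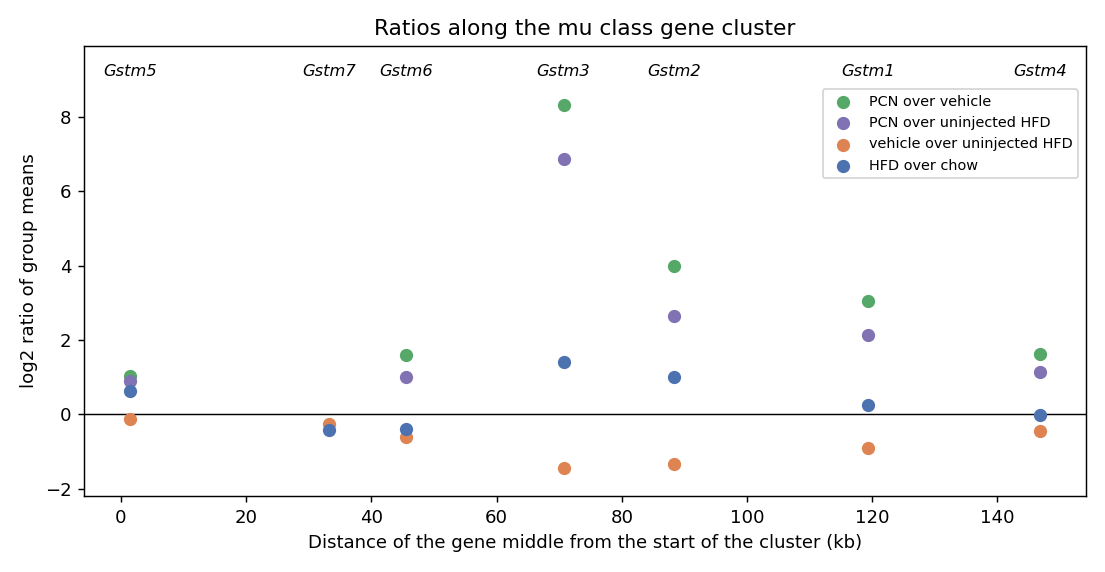
Log2 ratio of group means of the mu class genes in 4 comparisons, plotted against the distance of each gene's middle from the start of the cluster in kb. PCN over vehicle peaks at Gstm3 (8.30) and is 1.03 and 1.61 at the outer genes Gstm5 and Gstm4.

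RefSeq promoter windows were searched for 2 kinds of letters, in the 250 bases before 13 annotated starts of 9 of the 10 genes. The core of the antioxidant response element, TGACNNNGC on either strand, occurred in 1 window, that of Gsta3, and in 10.2% of 32841 promoters of the same length. The letters AGTTCA, a variant of the nuclear receptor recognition element, whose other variants such as AGGTCA were not searched, occurred in none of the 13 windows and in 11.8% of promoters, and so its repeats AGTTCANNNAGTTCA (0% of promoters), AGTTCANNNNAGTTCA (0.00913%) and TGAACTNNNNNNAGTTCA (0.00609%), each of which holds these letters, had no match either. These matches describe letters in a short window and nothing farther away. Some RefSeq starts lay away from the GENCODE gene start, at 8643 bases for Gsta2, 853 for Gstt1 and -9717 (upstream) for 1 of 3 starts of Gstm6. Gstm1 had the lowest adjusted p of the transferases between PCN and vehicle in the authors' deposited DESeq2 table. Shown here are the window of Gsta3, the gene with a match, and the first of 2 windows of Gstm1. Capitals mark the match, 121 to 113 bases before the start of Gsta3, and both read toward the gene in GRCm38.p6 (Gsta3 chr1:21240335-21240584, plus strand; Gstm1 chr3:108017974-108018223, minus strand):
Gsta3: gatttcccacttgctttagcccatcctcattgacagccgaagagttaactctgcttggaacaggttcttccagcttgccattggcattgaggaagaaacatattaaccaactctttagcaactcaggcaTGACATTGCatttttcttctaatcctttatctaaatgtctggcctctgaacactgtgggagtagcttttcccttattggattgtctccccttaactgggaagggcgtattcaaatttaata
Gstm1: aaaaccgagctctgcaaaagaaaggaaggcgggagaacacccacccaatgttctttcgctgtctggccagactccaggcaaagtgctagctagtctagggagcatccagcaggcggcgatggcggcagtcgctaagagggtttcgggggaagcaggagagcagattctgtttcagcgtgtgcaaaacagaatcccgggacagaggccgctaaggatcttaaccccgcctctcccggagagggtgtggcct

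Genes of like pattern were looked for by the root mean square (RMS) difference of centred log2 values. The search covered 1951 genes with counts in all 12 libraries and a mean normalized count of at least 50. Chow and PCN counts exist for genes the authors called, so each of these was called in at least 1 comparison. For Gstp1 the nearest was Gstp-ps on chromosome 1 (RMS 0.11), a processed pseudogene that shares 50-base windows with it. Gm8834 on chromosome 10 and Gstm2-ps1 on chromosome 5, both processed pseudogenes that share windows with Gstm1 and Gstm3, were among the 3 nearest to Gstm1 (0.45 and 0.48) and to Gstm2 (0.48 and 0.50). Gstm2-ps1 had 6557, 3429 and 7454 normalized counts in PCN replicates 5, 11 and 27, and 365, 443 and 257 in vehicle replicates 15, 23 and 55, a ratio of 16.4. Gm8834 had 3906, 2269 and 4341 against 203, 261 and 251, a ratio of 14.7. Both ratios lay between those of Gstm1 (8.23) and Gstm3 (315). Gstp-ps had 4693, 3660.4 and 4133 against 2377, 2614 and 1738, a ratio of 1.86 beside 1.91 for Gstp1. How many reads were assigned to a gene rather than its copy was not tested.

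**Figure D5:**
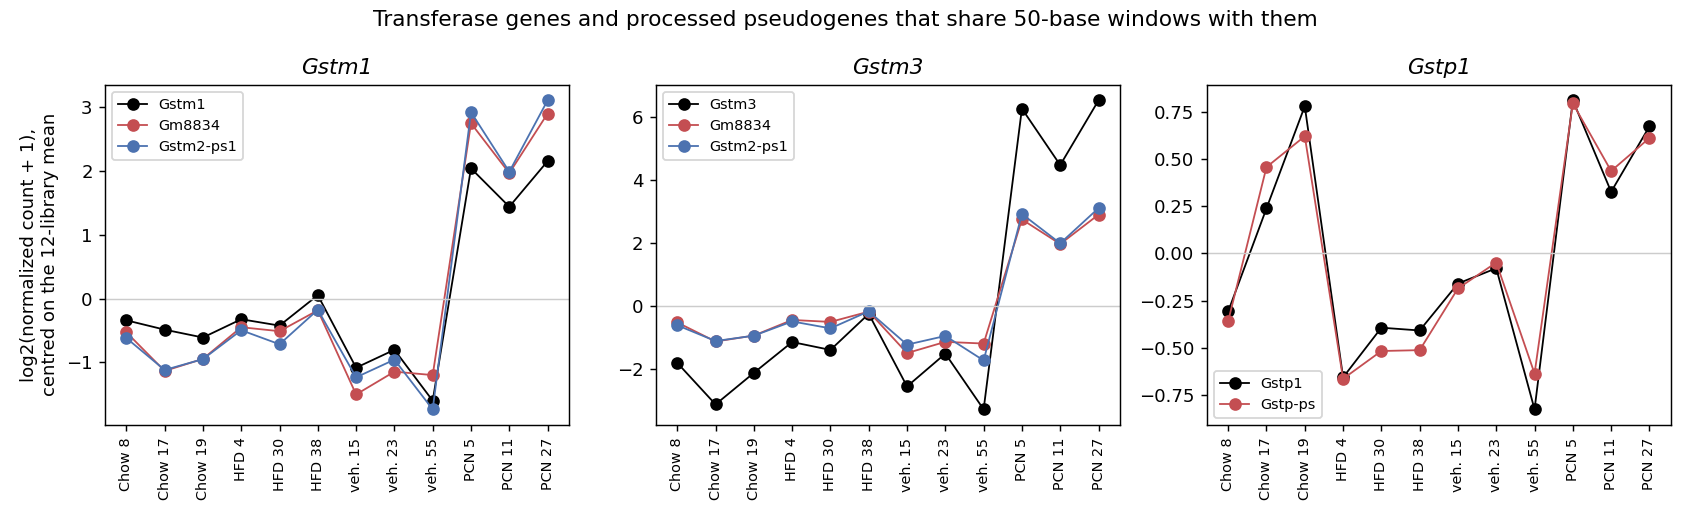
Log2(normalized count + 1), centred on the mean of the 12 libraries, of Gstm1, Gstm3 and Gstp1 (black) and of processed pseudogenes that share 50-base windows with them, 1 point per library. Gstp1 and Gstp-ps follow each other closely (RMS difference 0.11), and Gm8834 and Gstm2-ps1 move more than Gstm1 and less than Gstm3.

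For the other members the nearest genes were not copies of them. Gsta3 was nearest to Tm7sf3 (RMS 0.07), Mettl7a1 (0.11) and Abhd4 (0.13), and Gstm4 to Ugdh (0.21), whose enzyme makes UDP-glucuronic acid for glucuronidation, Entpd5 (0.27) and Gsr (0.28). Gstm3 was nearest to Cyp2c55, a cytochrome P450, at an RMS of 1.06 where the gene's own variation about its mean was 3.46. Gstm6 was nearest to Sult1a1, a phenol sulfotransferase (0.26), Gsta2 to Ugt1a9, a glucuronosyltransferase (0.88), and Gsta4 to Ces2c, a carboxylesterase (0.49). The measure takes in all 12 libraries and carries no test.

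Of 16 other glutathione transferase genes 1 rose and 0 fell between PCN and vehicle: Gstm5, which lies in the mu cluster and went 2.04-fold, from 126 ± 8.83 to 257 ± 13.5 (authors' deposited DESeq2 adjusted p = 0.000191). Against the untreated group 4 rose with PCN, Gsta1 (10.8-fold), Gstt3 (2.28-fold), Gstm5 (1.87-fold) and Gstt2 (1.63-fold). Gsta1, which shares windows with Gsta2, also rose 7.37-fold with the diet, from 9.51 ± 4.06 to 70.1 ± 57, where Gsta2 fell. Gstp3 (1.94-fold) and Mgst3, a membrane-bound transferase (2.32-fold), rose with the diet and Gsto1 of the omega class fell (1.34-fold). Between vehicle and HFD 0 of the 16 were called in the authors' table. Vehicle counts of Gsta1 were missing, so Gsta1 was not compared with the vehicle group here, either for PCN, HFD or chow. Against chow the vehicle group had Gstm7 lower (1.61-fold), and the PCN group had 5 higher, led by Gsta1 at 79.8-fold, and Gstk1 lower (1.6-fold).

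Genes that make and recycle glutathione gave 1 higher and 1 lower call of 16 between PCN and vehicle. Gsr, glutathione reductase, rose 1.92-fold, from 1385 ± 139 to 2662 ± 741, and Cbs, which feeds cysteine synthesis, fell 1.93-fold, from 5268 ± 897 to 2733 ± 847 (authors' deposited DESeq2 adjusted p = 0.00875 and 0.0157). Gclc and Gclm, the 2 subunits of the rate-limiting ligase of glutathione synthesis, were not called in any of the 6 comparisons. With the diet 2 of these genes rose (Pgd and Chac1) and 3 fell, Cth (2-fold), Cbs (1.87-fold) and Gsr (1.35-fold). Between vehicle and HFD 0 of 16 were called.

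Of 14 peroxidases, glutaredoxins and glyoxalases 2 rose and 0 fell between PCN and vehicle. These were Ethe1, a mitochondrial sulfur dioxygenase, which rose 1.81-fold from 456 ± 70 to 823 ± 74.1, and Gpx7, at low counts (10.7 ± 5.06 to 50.2 ± 12.3). Of 10 genes for conjugate export and the mercapturate steps 2 rose and 0 fell: Abcc3, a transporter that carries conjugates into blood, 1.78-fold, and Anpep, an aminopeptidase that trims glutathione conjugates, 2.05-fold. The transporter Abcc2, which sends conjugates into bile, was not called in any comparison. With the diet these 2 lists gave Gpx3 higher (3.27-fold) and Glo1 (1.44-fold) and Nat8 (1.87-fold) lower, and between vehicle and HFD none was called.

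Receptors and factors known to act on transferase genes gave 0 calls of 13 between PCN and vehicle, where 1.07% of genes tested rose and 0.641% fell. PCN counts existed for Nr1i3, Keap1, Maff, Bach1 and Hnf4a, and those of the other genes, Nr1i2 among them, were not analysed here. Nr1i3, which encodes CAR, had 5852 ± 818 with PCN and 5514 ± 842 with vehicle, both above the 3568 ± 216 of HFD liver, and it was called 1.55-fold higher in vehicle against HFD (authors' deposited DESeq2 adjusted p = 0.0371), which edgeR did not pass (adjusted p = 0.233). Nr1i2, which encodes PXR, had 1552 ± 180.3 in chow, 2026 ± 108 in HFD and 2265 ± 239 in vehicle liver, and was called 1.46-fold higher in vehicle against chow. Against HFD the PCN group had 3 of the 13 higher, Nr1i3 (1.64-fold), Bach1 (1.42-fold) and Keap1 (1.39-fold), the last of these the protein that holds NRF2 in check. Hnf4a, a factor that maintains hepatocyte gene expression, was lower in HFD (1.46-fold) and in PCN-treated liver (1.57-fold) than in chow.

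The calls in these lists of other genes are the authors'. Over all genes tested, 1.07% rose and 0.641% fell for PCN against vehicle, and 1.9% and 1.25% for PCN against HFD. For HFD against chow the shares were 2.81% and 2.05%, and for vehicle against HFD 0.281% and 0.511%. Against chow they were 1.72% and 1.38% with vehicle, and 4.43% and 3.67% with PCN. Of the list genes called between PCN and vehicle edgeR passed 0 of 7, with adjusted p from 0.0775 (Gstm5) to 0.348 (Abcc3). It passed 0 of 13 for HFD against chow, 0 of 6 for vehicle against chow and 0 of 1 for vehicle against HFD. For PCN against HFD it passed 1 of 14, Anpep, and for PCN against chow 8 of 18, Gsta1, Gstm5, Anpep, Gstt3, Cbs, Gpx7, Mgst3 and Pgd.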

How the data were processed

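RNA-seq of whole mouse liver was analysed from 6 deposited tables, 1 per pair of the 4 groups. Each gives raw read counts per gene that the authors deposited, with their DESeq2 base mean, log2 fold change, standard error, p-value and adjusted p-value. Per the submitters' processing notes HISAT2, HTSeq and DESeq2 were used with GRCm38 (mm10), while versions, strand setting and the handling of reads with several matches are not given in the sources used here. For vehicle against HFD the deposited table covers 26015 genes. The other 5 list values where the deposited adjusted p is under 0.05, so a gene missing there is not called. Counts of a gene were equal wherever 2 tables list it (15768 compared, 0 differed).

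Size factors were recovered from the deposited base means by least squares and brought to 1 scale (largest difference 0.518%). Ratios are of group means of normalized counts, and per-kb levels use the union of GENCODE M21 exons. Vehicle against HFD was tested with edgeR 4.0.16 quasi-likelihood (TMM, filterByExpr, Benjamini-Hochberg). For the other comparisons the authors' adjusted p under 0.05 is the main call, and edgeR was run beside it on listed genes, with dispersion priors of the complete table and adjustment over the number of genes tested estimated from the deposited p-values. The edgeR script was tested on simulated counts with known changes. DESeq2 1.42.0 was an alternative. Identity was computed on coding sequences in place of proteins, a choice made after the reference tables were seen. The shared windows, the order along the cluster and shares over main transcripts were also looked at after seeing the data.

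All 10 members are named, with up to 4 called genes of each list per comparison, those with the largest log2 ratios at a mean count of at least 50, and the 3 genes of nearest pattern. Gpx7, Gclc, Gclm, Abcc2, Gstm7, Gsta1 and Gpx3 (under this mean between HFD and chow) and levels of uncalled receptors were added after their values were seen. Members and lists were chosen with earlier results of these data known.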

Additional observations from a re-analysis of the deposited data

How the results depend on the processing

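Counts of calls depended on the test, the filter and single libraries. Transferases called by the authors' DESeq2 and passed by edgeR numbered 7 and 2 for PCN against vehicle, 4 and 1 for HFD against chow, 2 and 0 for vehicle against HFD, 9 and 4 for PCN against HFD, 1 and 0 for vehicle against chow, and 8 and 5 for PCN against chow. The cause was not tested. For vehicle against HFD, where edgeR passed 0, edgeR without a filter on low counts passed 3 and DESeq2 passed 3, beside 1, 283 and 268 of all genes. For PCN against chow edgeR passed 3 in place of 5 with TMM over listed genes, which also moved its calls over all genes from 491 higher and 287 lower to 394 and 614. Leaving out each library in turn, edgeR passed 0 to 4 transferases for PCN against vehicle, 0 to 0 for HFD against chow, 0 to 0 for vehicle against HFD, 0 to 8 for PCN against HFD, 0 to 0 for vehicle against chow and 2 to 7 for PCN against chow. Over all genes the same fits passed 0 to 25, 2 to 54, 0 to 9, 0 to 193, 0 to 52 and 141 to 721, in that order. Under other size factors 0 of 31 log2 ratios of called members reversed. Medians and left-out libraries could not reverse them, because the groups of each called member did not overlap. No paired analysis was possible because the groups share no replicate numbers. Low counts limit Gsta2 in vehicle replicate 55, with 16 reads.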
